A study of Mus musculus with 16 samples.

Results

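The genes described here were the olfactory receptor genes of one large cluster on mouse chromosome 2, taken as all GENCODE genes whose symbol starts with Olfr between positions 85200000 and 90500000 of the GRCm38 build. The rule found 287 genes, of 1407 Olfr genes and 53843 annotated genes on the autosomes and X. Of the 287 genes, 227 were annotated as protein-coding and 60 as pseudogenes, made up of 45 unprocessed, 12 polymorphic and 3 transcribed unprocessed ones. They lay on both strands, 100 on the plus and 187 on the minus strand, and had a median length of 5272 bp. The genes covered 27.1% of the interval and held 21.3% of its CpGs. The interval was also read as 106 bins of 50 kb and set against the 1-Mb flank on each side.

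Olfactory receptors are G protein-coupled receptors through which sensory neurons of the nose detect odorants. Their genes stand in tandem clusters, most have a single coding exon with short 5′ exons in front of it, and each sensory neuron expresses one allele of one receptor gene. In growing oocytes DNA methylation is laid down mainly over transcribed gene bodies, so that the mature oocyte genome alternates between highly methylated and hardly methylated domains. The cluster was named as silent in oocytes, and transcription was not measured in these libraries, so that name could not be checked here.

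Whole-genome bisulfite libraries were made by post-bisulfite adaptor tagging from pools of metaphase II (MII) oocytes, polar bodies included, of hybrid F1 females bred from C57BL/6J and CBA/Ca mice. IFC oocytes (n = 4 libraries) grew in vitro in cultured preantral follicles of prepubertal females, SO oocytes (n = 5) came from superovulated prepubertal females, SOA oocytes (n = 4) from superovulated adults and IV oocytes (n = 3) from naturally ovulating adults that received no hormones. The labels gave an age of 23 days for IFC and SO and of 10 weeks for SOA and IV. Per the study, the follicles for IFC were taken from females younger than 23 days, and that age includes the days in culture. The comparisons asked what follicle culture changes against superovulation at the same labelled age (IFC against SO), what age changes under superovulation (SO against SOA), what superovulation changes in adults (SOA against IV), and how cultured oocytes differ from adult superovulated ones (IFC against SOA). IFC and SO differed in treatment and in the age of the females at collection. IFC and SOA differed in both age and treatment, and SO and SOA also differed in hormone dose, so these cannot be told apart.

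Depth was low, with 5218053 to 23065411 methylation calls per library, and 65.5 to 91.5% of covered positions had a single call. IFC libraries had 5311009 to 8231898 calls and IV libraries 15644144 to 17275310. Inside the interval a library held 3948 to 19928 calls, which gave 95% Wilson intervals 1.26 to 2.92 percentage points wide that cover counting error only. All values below are the percentage of calls that were methylated, pooled over the positions of a bin, gene or region.

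The cluster was poor in CpGs and thinly covered. It held 4.97 CpGs per kb and 37.3% GC, against 9.94 and 10.7 CpGs per kb in the left and right flanks and 8.53 over chromosome 2. Soft-masked repeats made up 47.2% of the interval, against 31.8 and 31.4% of the flanks. A reference CpG of the interval received a median of 0.267 calls per library, against 0.379 over chromosome 2. A gene body had a median of 18 CpGs and 117 calls over all 16 libraries together, and 7 of the 287 genes had no call.

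The windows around the annotated gene starts had few CpGs, by either annotation. From 250 bases before to 50 bases after the GENCODE start, the 287 genes had a median of 1 CpG, 109 or 38.0% had none and 1 had 10 or more, while over all 53843 genes the median was 4 CpGs, 8.86% had none and 29.6% had 10 or more. RefSeq sequences of the same extent around its own starts, from GRCm38.p6, matched 181 of the 287 genes. They also had a median of 1 CpG, from 0 to 7, and 67 of the 181, or 37.0%, had none, against a median of 7 CpGs and 5.43% without CpG in 32851 mouse windows. Most RefSeq starts lay downstream of the GENCODE start, by a median of 2603 bases, and 149 of the 181 windows lay inside the GENCODE gene body, so that these windows cannot be taken as promoters. Only 29 of the 181 starts were within 100 bases of each other.

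The RefSeq start windows of 5 receptor genes that recur below are printed 5′ to 3′ with every CpG in capitals, to show how few sites each offers. They lay 2983 to 9303 bases downstream of the GENCODE start, inside the gene body. Olfr988 (chr2:85353875-85354174, minus strand) stood at the methylated left edge of the cluster, and its window has 1 CpG. Olfr1009 (chr2:85721157-85721456, plus strand) and Olfr1178 (chr2:88390999-88391298, plus strand) were among the least methylated gene bodies, and their windows have 3 CpGs and 0. Olfr1057 (chr2:86375361-86375660, minus strand) and Olfr1264 (chr2:90022015-90022314, minus strand) were the gene bodies called lower in SOA than in IV oocytes, with 2 CpGs each.
Olfr988: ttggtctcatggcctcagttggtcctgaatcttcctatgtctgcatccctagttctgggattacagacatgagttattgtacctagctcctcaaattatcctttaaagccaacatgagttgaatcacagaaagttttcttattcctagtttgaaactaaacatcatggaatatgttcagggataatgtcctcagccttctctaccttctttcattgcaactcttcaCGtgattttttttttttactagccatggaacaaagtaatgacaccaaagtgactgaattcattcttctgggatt
Olfr1009: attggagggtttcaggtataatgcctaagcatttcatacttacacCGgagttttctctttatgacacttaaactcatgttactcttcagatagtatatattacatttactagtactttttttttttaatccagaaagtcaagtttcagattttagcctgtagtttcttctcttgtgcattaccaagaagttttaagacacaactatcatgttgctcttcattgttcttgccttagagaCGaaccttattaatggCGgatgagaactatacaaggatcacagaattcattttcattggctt
Olfr1178: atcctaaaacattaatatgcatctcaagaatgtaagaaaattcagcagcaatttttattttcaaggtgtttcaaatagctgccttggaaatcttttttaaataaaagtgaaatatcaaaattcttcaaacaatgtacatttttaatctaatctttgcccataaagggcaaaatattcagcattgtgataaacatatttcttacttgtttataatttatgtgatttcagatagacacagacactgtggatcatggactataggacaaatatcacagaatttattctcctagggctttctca
Olfr1057: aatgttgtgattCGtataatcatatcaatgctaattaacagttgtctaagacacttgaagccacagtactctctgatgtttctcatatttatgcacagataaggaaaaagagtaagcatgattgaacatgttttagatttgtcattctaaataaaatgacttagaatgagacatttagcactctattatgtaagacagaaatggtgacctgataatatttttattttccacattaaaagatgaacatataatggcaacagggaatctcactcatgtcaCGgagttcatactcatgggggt
Olfr1264: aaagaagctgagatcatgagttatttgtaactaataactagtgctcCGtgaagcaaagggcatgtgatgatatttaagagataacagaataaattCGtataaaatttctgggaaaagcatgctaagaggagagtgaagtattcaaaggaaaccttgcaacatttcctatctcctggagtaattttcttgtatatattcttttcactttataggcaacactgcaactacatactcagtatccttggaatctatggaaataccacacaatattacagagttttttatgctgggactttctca

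Calls in these windows were scarce. The Olfr988 window had 7 methylated calls of 11 over the 16 libraries, the Olfr1009 window 4 of 19 and the Olfr1264 window 0 of 27, which allows a share of up to 11.1%. Over all 181 windows a library had 16 to 117 calls, and the methylated share averaged 34.4% ± 7.25 over the 4 IFC libraries, 22.5% ± 8.04 over the 5 SO libraries, 27.2% ± 11.2 over the 4 SOA libraries and 24.2% ± 5.36 over the 3 IV libraries (SD). The groups overlapped, and differences between start windows of single genes were not detectable at this depth.

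The cluster was neither unmethylated nor fully methylated in any library. The whole interval had 36.2, 36.0, 34.4 and 33.2% in the 4 IFC libraries and 36.7, 34.9, 30.8, 34.6 and 33.3% in the 5 SO libraries. It had 30.9, 31.2, 27.1 and 28.9% in the 4 SOA libraries and 36.1, 30.3 and 30.8% in the 3 IV libraries. All SOA libraries lay below all IFC libraries, SOA and SO overlapped, and IV replicate 1 stood 5.30 points above the next IV library.

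Within the interval the receptor gene bodies were less methylated than the DNA around them, by an amount that depended on how much of the edges was counted. The pooled Olfr gene bodies had 30.3, 29.7, 27.5 and 26.5% in IFC and 30.0, 27.3, 23.9, 29.0 and 26.8% in SO. They had 22.8, 23.1, 20.9 and 21.02% in SOA and 30.1, 21.3 and 20.8% in IV. The 4 SOA libraries lay below every IFC and SO library, and IV replicate 1 was again apart from the other IV libraries. The study kept this library while naming cumulus cells as a possible admixture in it, and their part in the results was not tested. The rest of the interval lay 9.61 ± 1.60 points (SD, n = 16) above the gene bodies, with 7.49 to 13.1 points in single libraries. Between the first and the last Olfr gene, the DNA outside the gene bodies lay 3.44 ± 1.58 points above them, with 1.56 to 7.23 points in single libraries. This extent was chosen for the comparison after seeing the data. It leaves out the methylated DNA beyond these genes but keeps part of the left edge, with Olfr987 and Olfr988. Exons were above introns in 15 of 16 libraries, at 20.5 to 31.9% and 14.8 to 28.9%.

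**Figure D1:**
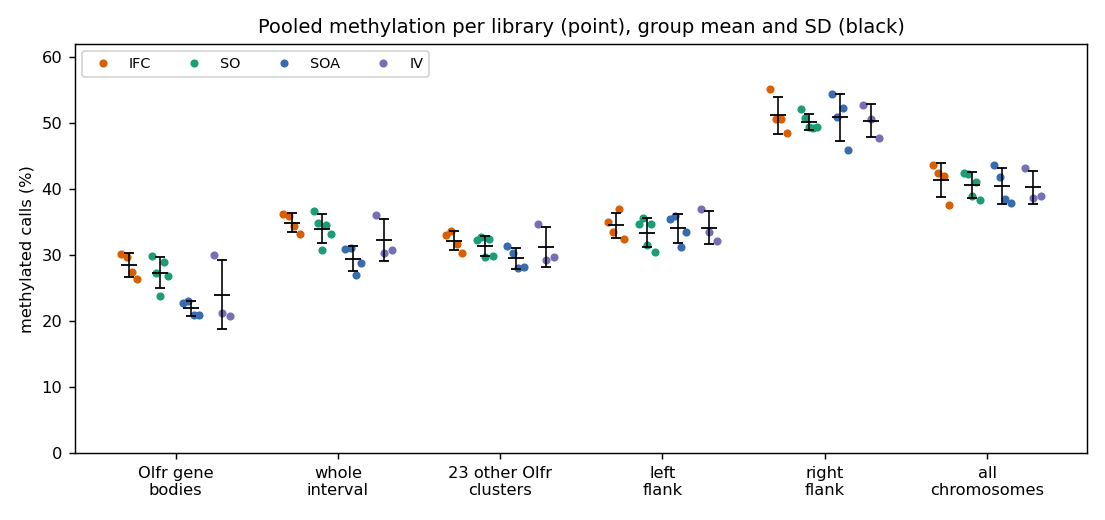
Methylated calls (%) of each library, with 1 point per library coloured by group and the group mean and SD in black, for the Olfr gene bodies, the whole interval, the other Olfr clusters, each flank and all chromosomes. The SOA libraries lie at 20.9 to 23.1% over the Olfr gene bodies, below every IFC and SO library, while the groups overlap in both flanks and over all chromosomes.

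Against its surroundings the cluster depended on which side, which extent and which sequence was compared. Both flanks together had 40.4 to 46.5%, and the interval was lower in 16 of 16 libraries, by 10.2 ± 2.53 points (SD; two-sided sign-flip permutation p = 3.05e-05, the smallest that 16 libraries allow). The interval lay 17.8 points below the right flank in the mean and 1.18 points below the left flank, where the difference did not hold up against the spread (lower in 11 of 16 libraries, sign-flip permutation p = 0.0911). Taken only from the first to the last Olfr gene, an alternative chosen after seeing the data, the cluster lay 5.85 ± 2.75 points below the left flank, lower in 16 of 16 libraries, and 14.9 points below both flanks together (sign-flip permutation p = 3.05e-05 for each). Outside all annotated genes the order turned around: the interval had 26.8 to 36.6% and the flanks 19.5 to 26.5%, and the interval was higher by 10.9 points in 16 of 16 libraries (sign-flip permutation p = 3.05e-05), and by 7.90 points between the first and the last Olfr gene. Genes covered 53.4% of the left flank and 77.8% of the right flank.

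Of the protein-coding genes of the flanks measured in every library, the 3 highest and the 3 lowest on each side are named here, and the others lay between them. On the left, Slc43a3, a solute carrier, had 94.0% as the mean of the 16 libraries, Ctnnd1, which encodes p120 catenin, 82.6%, and Ssrp1, a subunit of the histone chaperone FACT, 82.2%, while Ypel4 had 1.54%, Rtn4rl2, a Nogo receptor relative, 2.97%, and Aplnr, the apelin receptor, 3.79%. On the right, Madd had 87.3%, Rapsn, which anchors acetylcholine receptors at the synapse, 80.6%, and Nup160, a nuclear pore protein, 80.4%, while Nr1h3, the liver X receptor alpha, had 9.10%, Lrp4 9.56% and C1qtnf4 11.3%. By 50-kb bins, 65 of the 103 bins of the interval measured in every library, or 63.1%, had a mean from 20 to 50%, against 14 of the 40 flank bins and 33.5% of 50629 bins of the genome. Under 20% were 24.3% of the bins of the interval and 32.2% of all bins, and over 80% were 4 bins, or 3.88%, against 13.7% of all bins.

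**Figure D2:**
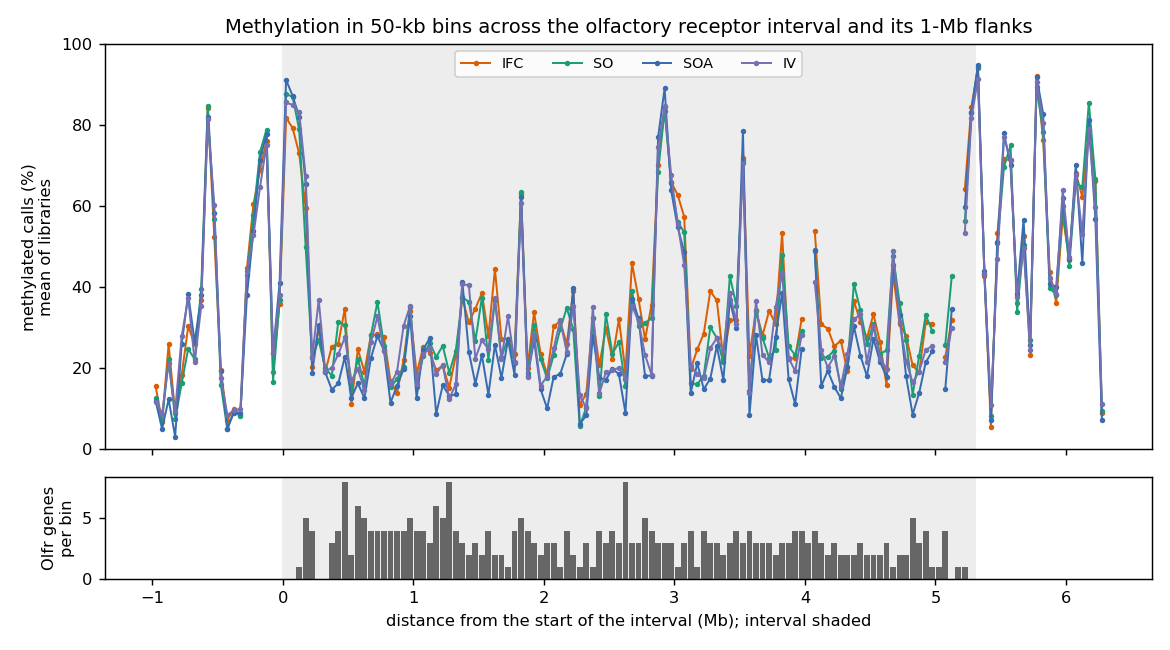
Mean methylated calls (%) of each group in 50-kb bins, plotted by the distance in Mb from the start of the interval (shaded) and over its flanks, with the number of Olfr genes per bin below. The groups follow 1 profile with high edges and a few high stretches inside, between 8.60 and 86.7% as the mean of the libraries, and SOA (blue) is lowest in many of the low bins.

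The methylated bins stood at the edges and in a few stretches inside. Of the 13 bins with a mean of at least 50%, 4 formed the left edge and 2 the right edge. The highest was chr2:85200001-85250000, which holds no Olfr gene but the lincRNA Gm13715, where the mean was lowest in IFC with 81.8% ± 4.93, followed by IV with 85.6% ± 3.49, SO with 87.7% ± 3.15 and SOA with 91.1% ± 5.23 (SD). Its neighbour chr2:85250001-85300000 had a mean of 84.7%, and chr2:85300001-85350000, with Olfr987, the first receptor gene of the cluster, 79.0%. At the right end chr2:90450001-90500000, inside the receptor-type phosphatase gene Ptprj, had 83.1%. Ptprj itself (chr2:90429754-90580647), which crosses the edge of the interval, had 77.9%.

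Inside the cluster, 5 neighbouring bins from 88050001 to 88300000 had means of 72.2, 85.4, 65.7, 57.4 and 51.8%. They hold the receptor genes from Olfr1162 to Olfr1173, and no other annotated gene. Single methylated bins lay at chr2:87000001-87050000, with Olfr1102 to Olfr1106, at 62.6%, and at chr2:88700001-88750000, with Olfr1196, Olfr1197 and Olfr1198, at 73.1%. The lowest bins, at 8.60 and 10.7%, were chr2:87450001-87500000 and chr2:87500001-87550000. They hold Pramel7 and Pramel6, genes of the PRAME family, whose members are used in germ cells and early embryos. Pramel7 (chr2:87489087-87497093) stood between 5.30% ± 1.04 in the 3 IV libraries and 6.91% ± 5.17 in the 4 IFC libraries (SD), with group means closer together than the IFC libraries.

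The other protein-coding genes of the interval were low as well. The long gene 4833423E24Rik (chr2:85483594-85519024), with 1504 calls, was lowest in IFC at 18.3% ± 3.45 and highest in IV at 27.6% ± 4.43, with SO at 24.3% ± 4.84 and SOA at 24.3% ± 4.71 between them (SD), and passed the test in no comparison. Pramel6, Gm13723, Gm13757 and Gm13762 had 268, 119, 72 and 193 calls in all and means of 7.85, 28.3, 15.3 and 17.8% over the libraries, too few for a test. Gm13769 had 2 calls.

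The bin profile was shared by the libraries. Across the 103 bins Pearson's r between libraries was 0.796 to 0.939 within groups and 0.774 to 0.961 between groups, over bins that share their CpG content and mapping. Bins with more Olfr genes had somewhat lower methylation (r = -0.33) and bins with more CpGs somewhat higher (r = 0.29), while the soft-masked share of a bin was hardly related (r = -0.08). Around the GENCODE starts of the 287 genes, in windows of 500 bp out to 5 kb on both sides, the SOA mean was 17.6 to 27.0% and the IFC mean 20.4 to 34.5%. The window just after the start was at 17.6% in the SOA mean, 19.7% in IV, 22.2% in SO and 23.6% in IFC, which was the lowest of the windows in SOA, IV and SO and not in IFC.

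Single receptor genes ranged over the whole scale. A total of 135 genes had at least 20 pooled calls in every group. Their median was lowest in SOA at 14.3%, followed by IV at 18.03%, SO at 22.4% and IFC at 24%. Under 20% were 53 of the 135 genes in IFC and also 53 in SO, against 92 in SOA and 76 in IV, while 17, 18, 18 and 16 genes were over 50%. IFC was above SOA in 101 of the 135 genes and SO above SOA in 95, with median differences of 5.81 and 5.08 points. The share of all genes is not given for the counts of these 135 genes. They cannot be read as particular to the cluster. SOA replicate 4 held 4838 calls in the Olfr gene bodies, against 1034 to 1434 in each other SOA library, and weighs most in the pooled SOA values. Genes with at least 5 covered positions in every compared library were also set side by side by the means of the libraries. There IFC was above SOA in 19 of 31 receptor genes (61.3%, median 3.10 points), against 54.4% of all genes. SO was above SOA in 19 of 28 (67.9%, median 8.81 points), against 50.3% of all genes. These genes share their libraries and are not replicates.

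**Figure D3:**
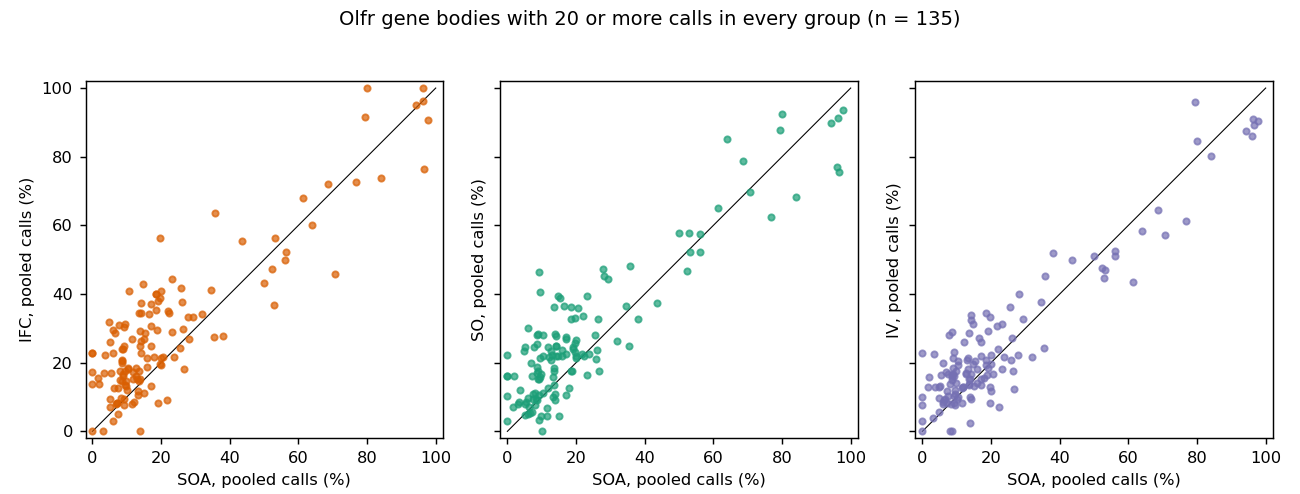
Pooled methylated calls (%) of the 135 Olfr gene bodies with at least 20 calls in every group, with SOA on the x axis and IFC, SO and IV on the y axes, 1 point per gene and the line of equality. Most points under 50% lie above the line for IFC and SO, and 101 and 95 of the 135 genes do so over the whole range. The share of all genes is not given for these counts.

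Only 25 genes had at least 5 covered positions in every library. The highest of these was Olfr988 (chr2:85352428-85363227), with 63.6, 83.3, 83.3 and 70.6% in IFC, 50 to 80% in SO, and 77.8 to 85.7 and 70.4 to 95.2% in the adult groups SOA and IV, so that all groups overlapped. Olfr1152 (chr2:87866492-87874156), the gene with the most calls, 688, had 48.3% over all libraries and 46.6 to 52.3% in the 4 groups. Olfr1217 had 49.7% as the mean of the libraries, Olfr1191-ps1 37.6%, Olfr1220 37.5% and Olfr52 36.5%. The lowest were Olfr1178 (chr2:88387062-88400799) at 6.53%, Olfr1264 (chr2:90018526-90025577) at 8.46%, Olfr1254 at 8.67% and Olfr1009 (chr2:85715419-85725136) at 9.11%.

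The first and last genes of the row differed. Olfr987 (chr2:85330779-85339315) had 29 methylated calls of 38 in IFC and 46 of 61 in SO, against 57 of 59 in SOA and 67 of 75 in IV. Olfr1274-ps (chr2:90398683-90403897), next to Ptprj, had 4 of 27, 2 of 46, 4 of 41 and 7 of 50 in the same order. Both had too few positions for a test.

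For the interval as 1 region, the adult superovulated oocytes had the lowest mean, and no comparison passed correction for the 4 comparisons. IFC libraries averaged 35.0% ± 1.42 and SO libraries 34.1% ± 2.20, while SOA libraries averaged 29.5% ± 1.92 and IV libraries 32.4% ± 3.19 (SD). IFC was 5.44 points above SOA without overlap (two-sided exact permutation p = 0.0286, the smallest that 4 against 4 allow, and 0.0635 after Benjamini-Hochberg adjustment). SO was 4.54 points above SOA with overlap (exact permutation p = 0.0317, adjusted 0.0635). SOA was 2.87 points below IV (exact permutation p = 0.286, adjusted 0.381), and 1.04 points below without IV replicate 1. IFC and SO differed by 0.898 points (exact permutation p = 0.540, adjusted 0.540). With only positions of at least 3 calls, which kept 0.273 to 10.5% of the positions of a library, IFC was 0.640 points above SOA (exact permutation p = 0.886).

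Over all chromosomes together the libraries had 37.6 to 43.6%, with all groups overlapping. After subtracting each library's genome-wide percentage, an alternative chosen after seeing the data, the interval was 4.498 points higher in IFC and 4.39 points higher in SO than in SOA. In the gene bodies and in the rest of the interval IFC was above SOA by 6.52 and 5.07 points, and SO above SOA by 5.42 and 4.25 points.

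The other olfactory receptor clusters gave the closest comparison. The genome held 23 other clusters of at least 10 Olfr genes, with 990 genes and means of 9.23 to 48.1%. Pooled over these clusters, IFC libraries averaged 32.2% ± 1.46, SO libraries 31.5% ± 1.51, SOA libraries 29.5% ± 1.61 and IV libraries 31.2% ± 3.04 (SD). The chromosome 2 interval was above them by 2.75 ± 0.321 points in IFC, by 2.59 ± 1.30 points in SO and by 1.14 ± 0.147 points in IV, and differed from them by -0.0135 ± 0.862 points in SOA. The SOA values of this difference, -1.02 to 0.795 points, lay below all values of each other group, 2.34 to 3.12 in IFC, 1.04 to 4.38 in SO and 1.04 to 1.31 in IV. The other clusters run from their first to their last Olfr gene, whereas the interval also holds the methylated DNA beyond its outermost Olfr genes. On the same extent the direction turned around. From the first to the last Olfr gene, an alternative chosen after seeing the data, the chromosome 2 cluster was below the other clusters in 16 of 16 libraries, with mean differences of -4.91 ± 0.520 points for the SOA libraries, -3.296 ± 0.678 for IV, -2.22 ± 1.05 for SO and -1.67 ± 0.962 for IFC (SD). The SOA values, -5.43 to -4.20 points, again lay below all values of the other groups, -2.74 to -0.423 in IFC, -3.46 to -1.16 in SO and -3.80 to -2.53 in IV.

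The test of that difference did not pass correction. IFC minus SOA was 2.77 points (exact permutation p = 0.0286, adjusted 0.0571) and SO minus SOA 2.61 points (exact permutation p = 0.0159, adjusted 0.0571). SOA minus IV was -1.16 points (exact permutation p = 0.0857, adjusted 0.114), and IFC minus SO 0.161 points (exact permutation p = 0.794). From the first to the last Olfr gene these were 3.24, 2.69, -1.62 and 0.551 points. By the size of IFC minus SOA the interval ranked 5 of 24, after clusters on chromosomes 16, 6, 7 and 2, where the difference was 13.4, 11.1, 6.02 and 5.70 points, and from the first to the last Olfr gene, with 5.91 points, it ranked 4. The mean was higher in IFC than in SOA in 21 of the 23 other clusters, without overlap in 5, and higher in SO than in SOA in 20, without overlap in 4. Clusters of 1 library are not independent, and SOA enters both comparisons.

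**Figure D4:**
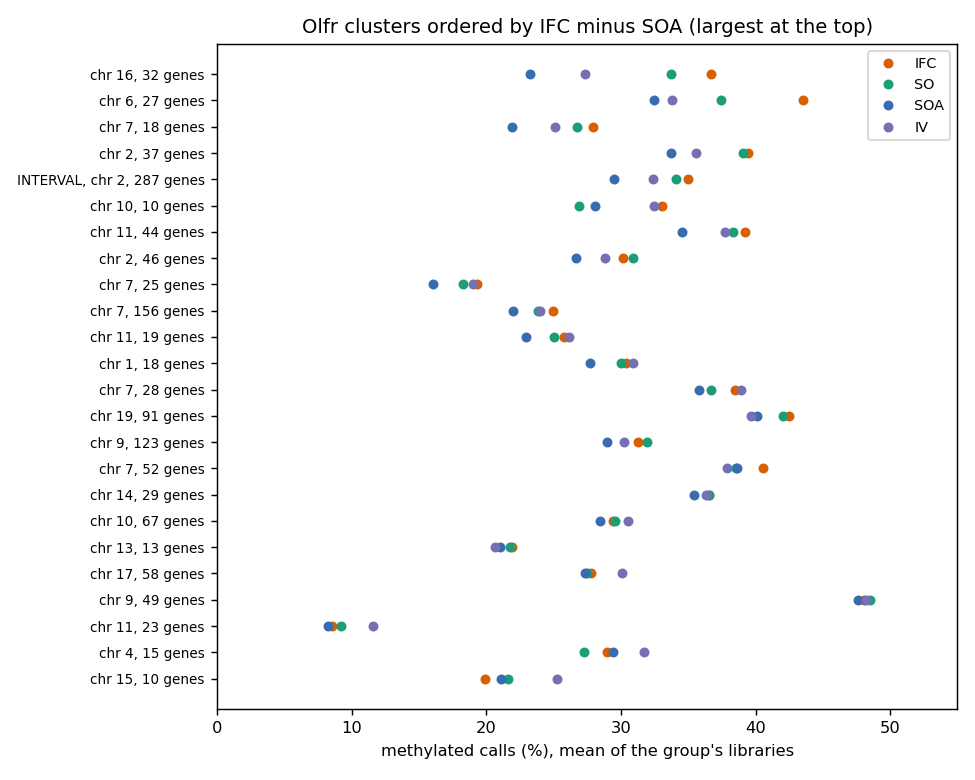
Group means of methylated calls (%) in the chromosome 2 interval and 23 other Olfr clusters, 1 row per cluster named by chromosome and number of Olfr genes, ordered by IFC minus SOA with the largest at the top. SOA (blue) is left of IFC (orange) in all but the 2 lowest rows, and the interval stands in row 5 of 24 with 29.5% in SOA and 35.0% in IFC.

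Bin by bin, IFC oocytes had a higher percentage of methylated calls than SOA oocytes over much of the cluster. Logistic regression of the calls on group, with Benjamini-Hochberg adjustment over all bins of the genome, called 38 of 103 tested bins higher in IFC (36.9%), against a background of 21.7% of all bins, and 3 bins lower (2.91%), against 7.53%. The median difference was 5.58 points in the interval and 1.28 points over all bins. All 38 higher bins had an SOA mean under 50%, and the 3 lower ones were the methylated left edge. Most bins of the interval were low: of the 103, 25 had a mean of all libraries under 20% and 65 from 20 to 50%. SOA is also 1 of the groups compared, so its level in the called bins is no separate result. Differences in points are between the means of the libraries, whereas logistic regression compares the pooled calls, and no called bin or receptor gene of the cluster had opposite directions by the 2 measures. Logistic regression treats calls as independent: limma on the library percentages called 9 of the 103 bins (8.74%), all higher in IFC, against 4.45% of all bins in either direction, a quasi-binomial test, which scales the error to the spread between libraries, called 5 (4.85%) against 2.47%, and the count by logistic regression was 24 without IFC replicate 1 and 20 without SOA replicate 4. For the sets without 1 library the share of all bins is not given, so these lower counts cannot be compared with the background.

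The largest difference lay over Olfr1183, Olfr1184 and Olfr1185-ps1, at chr2:88450001-88500000. The bin had 41.3, 28.9, 45.5 and 40.5% in the IFC libraries and 18.8, 12.5, 18.8 and 19.9% in the SOA libraries. Every IFC library was above every SOA library, and the difference was 21.6 points (adjusted p = 1.31e-07 by logistic regression and 0.0127 by limma). The next, over Olfr141 and Olfr1094 at chr2:86800001-86850000, was 18.6 points (adjusted p = 0.00841 by logistic regression), with 30.8 to 52.5% in IFC and 12.5 to 45.5% in SOA, which overlapped, and limma did not call it (adjusted p = 0.227). The largest of the lower bins, chr2:85200001-85250000, differed by -9.32 points (adjusted p = 0.00618 by logistic regression and 0.171 by limma), and chr2:85300001-85350000 by -9.09 points (adjusted p = 0.0213 by logistic regression and 0.271 by limma).

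SO oocytes stood above SOA oocytes in a smaller number of bins. Of 103 bins 23 were called higher in SO (22.3%), against a background of 15.9%, and 2 lower (1.94%), against 6.58%. The median difference was 4.30 points in the interval and 0.616 points over all bins. limma called 3 bins (2.91%), against 1.82% of all bins, the quasi-binomial test 1 (0.971%), against 0.523%, and without SOA replicate 4 logistic regression called 13 bins. For that last set the share of all bins is not given. At chr2:87650001-87700000, over Olfr1134, Olfr1135 and Olfr1136, SO libraries had 35.3, 41.4, 26.4, 27.7 and 35.9% and SOA libraries 23.5, 16.7, 13.04 and 15.4%. The groups did not overlap, and the difference was 16.2 points (adjusted p = 0.000679 by logistic regression and 0.0435 by limma). At chr2:85600001-85650000, over Olfr999-ps1, Olfr1000, Olfr1001-ps1 and Olfr1002, it was 15.2 points (adjusted p = 0.00411 by logistic regression and 0.0234 by limma), with 26.4 to 36.0% in SO and 11.1 to 20.8% in SOA.

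Both bins called lower in SO were methylated ones, by a level that SOA itself enters. Over Olfr988 to Olfr992 at chr2:85350001-85400000 the SO libraries had 42.1 to 64.9% and the SOA libraries 59.3 to 70.6% (difference -15.7 points, adjusted p = 0.000335 by logistic regression and 0.115 by limma). At chr2:88700001-88750000, over Olfr1196, Olfr1197 and Olfr1198, the difference was -7.25 points (adjusted p = 0.0131 by logistic regression and 0.453 by limma).

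Cultured and superovulated prepubertal oocytes differed in few bins. In IFC against SO, 7 of 104 bins were called higher in IFC (6.73%), close to the background of 6.75%, and 1 lower, against 4.52% of all bins. limma and the quasi-binomial test called none, as in all but 0.355 and 0.00395% of all bins, with 12 and 9 bins of the interval at an unadjusted p under 0.05, and logistic regression called 3 bins without IFC replicate 1, 5 without IFC replicate 3, 5 without IFC replicate 4 and 1 without SO replicate 3. For these sets without 1 library the share of all bins is not given. The largest difference, 11.9 points at chr2:89450001-89500000 over Olfr1241 and Olfr1242, came with 19.05 to 31.8% in IFC and 9.38 to 20.2% in SO (adjusted p = 0.0267 by logistic regression and 0.176 by limma). At chr2:88900001-88950000, over Olfr1208, Olfr1209 and Olfr1211, it was 11.5 points (adjusted p = 0.0188 by logistic regression and 0.138 by limma). The lower bin was chr2:85250001-85300000 at the left edge, at -7.65 points (adjusted p = 0.0405 by logistic regression and 0.457 by limma).

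In SOA against IV, all called bins were lower in SOA, in a smaller share than over the genome, and their number changed with single libraries. Logistic regression called 11 of 104 bins lower in SOA (10.6%), against a background of 17.8%, and 0 higher, against 3.93%. limma and the quasi-binomial test called none, here or in any bin of the genome (0%), with 9 and 8 bins of the interval at an unadjusted p under 0.05. Logistic regression called 1 bin without IV replicate 1, 6 without SOA replicate 4, 18 without IV replicate 2 and 23 without IV replicate 3. The share of all bins is not given for these sets, so the changes cannot be read as particular to the cluster. Over all genes, 12.8% were called lower in SOA with IV replicate 1 and 3.46% without it. At chr2:87300001-87350000, with Olfr1118, the SOA libraries had 20.0, 18.3, 21.9 and 14.2% and the IV libraries 33.1, 33.5 and 28.8%. The groups did not overlap, IV replicate 1 was not the highest, and the difference was -13.2 points (adjusted p = 1.36e-05 by logistic regression and 0.862 by limma). At chr2:86600001-86650000, with Olfr1083-ps and Olfr1084, it was -16.4 points between the means of the libraries, with SOA at 10.0 to 37.0% and IV at 38.6 to 41.6%, but the pooled calls were closer, at 31.5% in SOA and 40.7% in IV (adjusted p = 0.0446 by logistic regression and 0.862 by limma).

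**Figure D5:**
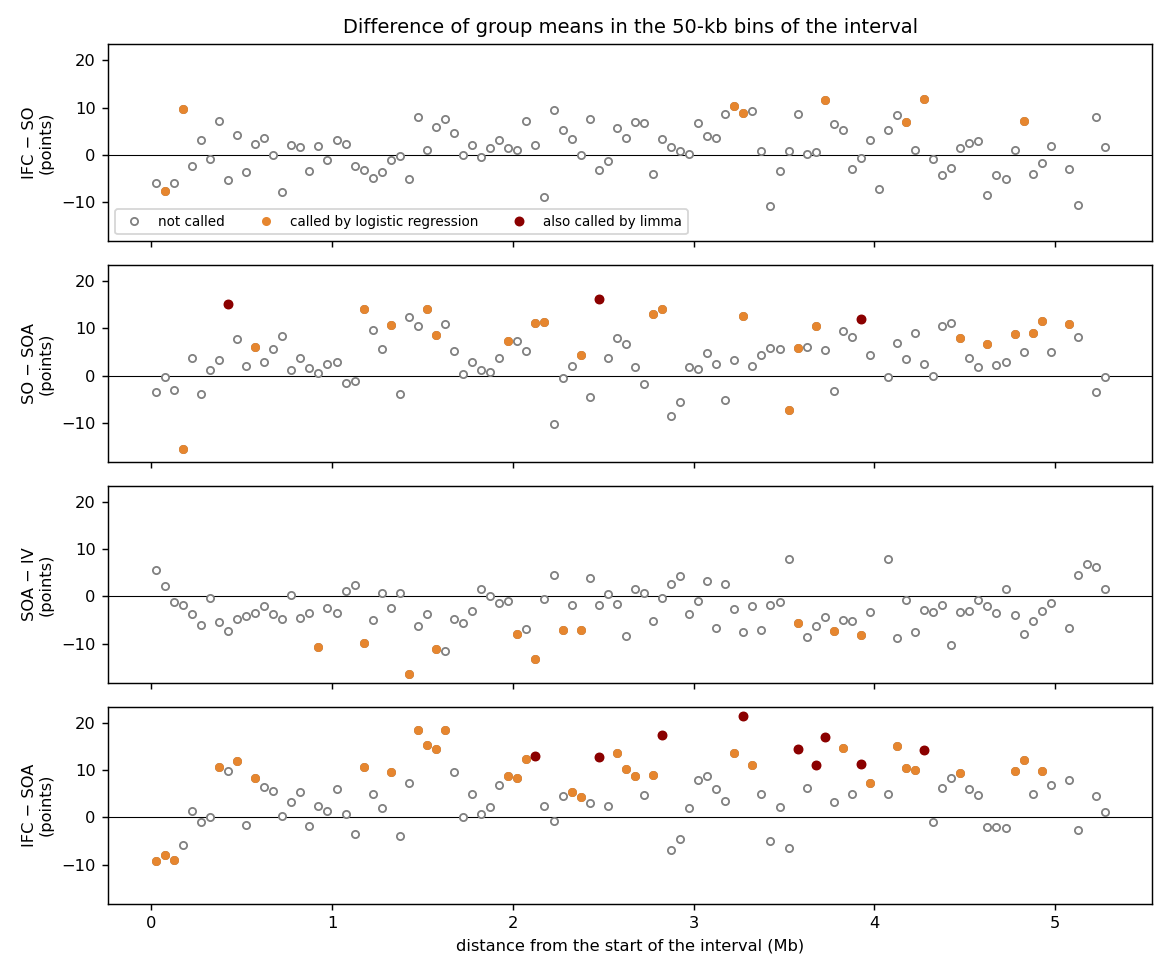
Difference of group means in percentage points in each 50-kb bin of the interval, by distance in Mb from its start, for the 4 comparisons, with open points not called, orange points called by logistic regression and dark red points also called by limma. In IFC minus SOA 38 bins are called above 0 and 3 below, all 3 at the left end.

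With bins placed by the naturally ovulated oocytes, IFC minus SOA was alike in the classes under 50% and had the other sign in bins of 50% or more. The classes were not tested against each other. Bins were sorted by their mean in the IV libraries, which enter none of the values that follow. IV and SOA oocytes both came from adults, so the classes are not independent of the adult level. How far the sorting shapes the signs was not tested. In the 28 bins under 20% in IV, the mean over libraries was 20.6% ± 0.862 for IFC, 18.9% ± 1.94 for SO and 13.7% ± 0.437 for SOA (SD). In the 63 bins from 20 to 50% it was 31.5% ± 1.19, 30.2% ± 1.86 and 24.8% ± 1.55 for the same groups. In the 12 bins of 50% or more it was 71.7% ± 2.25, 70.9% ± 2.69 and 74.5% ± 1.70, so that SOA had the highest mean there, with single libraries overlapping IFC and SO. IFC minus SOA was 6.90, 6.72 and -2.82 points in the 3 classes, and 2.84, 2.24 and -1.16 points in the same classes of all bins of the genome. With the bins sorted without IV replicate 1, also chosen after seeing the data, they were 6.91, 6.79 and -3.38 points in 43, 48 and 12 bins.

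Few single genes could be tested, and those called had large differences from few calls. Of the 287 genes 31, 28, 42 and 31 had at least 5 positions in every library of IFC against SO, SO against SOA, SOA against IV and IFC against SOA. In IFC against SOA 6 of 31 genes were called higher in IFC, against a background of 18.1% of all genes, and 0 lower, against 8.01%, and 3 genes were called without SOA replicate 4. In SO against SOA 3 of 28 were called higher in SO, against 13.7%, and 0 lower, against 8.5%, with 5 called without SO replicate 1 or SOA replicate 3 and 6 without SO replicate 3. In IFC against SO 2 of 31 were called higher in IFC, against 10.6%, and 0 lower, against 5.88%, with 1 called without IFC replicate 1 or 2, 0 without IFC replicate 3 and 5 without SO replicate 1. In SOA against IV 2 of 42 were called lower in SOA, against 12.8%, and 0 higher, against 8.97%, with 1 called without SOA replicate 3, 0 without IV replicate 1 and 5 without IV replicate 3. Without IV replicate 1, 3.46% of all genes were called lower in SOA and 7.42% higher. For the other sets without 1 library, the share of all genes is not given. Their counts cannot be read as particular to the cluster. limma called 1 gene in IFC against SOA, where it called 1.27% of all genes, and none in IFC against SO, SO against SOA and SOA against IV, where it called 0.0554, 0.287 and 0% of all genes, with 4, 6 and 5 of the cluster's genes at an unadjusted p under 0.05 in these 3. The quasi-binomial test called none in any comparison, against 0.0111, 0.151, 0.00723 and 0.968% of all genes in IFC against SO, SO against SOA, SOA against IV and IFC against SOA, with 3, 6, 3 and 5 genes at an unadjusted p under 0.05.

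Olfr1183 (chr2:88454867-88469199, plus strand) was the receptor gene called by limma. It had 68.2, 50, 61.9 and 40% in the IFC libraries and 15, 7.69, 26.3 and 22.0% in the SOA libraries. The SO libraries had 18.2, 28.6, 32.5, 35.9 and 36.4%, and the IV libraries 35.5, 38.9 and 21.7%. Every IFC library was above every library of the other groups. The difference was 37.3 points between IFC and SOA (adjusted p = 7.04e-06 by logistic regression and 0.0465 by limma) and 24.7 points between IFC and SO (adjusted p = 0.0132 by logistic regression and 0.253 by limma).

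Olfr1087 (chr2:86687235-86698395) had 21 methylated calls of 56 in IFC and 10 of 70 in SOA, with single libraries at 29.4 to 50% and 0 to 23.5%, and was called higher in IFC without overlap (29.05 points, adjusted p = 0.0139 by logistic regression and 0.115 by limma). Olfr1123 (chr2:87416635-87423211) was called higher in IFC than in SO on 8 of 28 against 4 of 73 calls, with libraries at 0 to 66.7% and 0 to 13.04%, which overlapped (24.5 points, adjusted p = 0.0205 by logistic regression and 0.658 by limma). Olfr1256 (chr2:89825311-89841555) had 30.4 to 80% in SO and 11.8 to 16.7% in SOA, without overlap (30.3 points, adjusted p = 0.00818 by logistic regression and 0.284 by limma). Olfr1270 (chr2:90145255-90153091) had 18.2 to 42.9% in SO and 0 to 17.1% in SOA, also without overlap (21.8 points, adjusted p = 0.0215 by logistic regression and 0.164 by limma).

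Olfr1264 and Olfr1057, whose RefSeq start windows are printed above, were the genes called lower in SOA than in IV. Olfr1264 had 1 methylated call of 63 in SOA and 17 of 132 in IV, and Olfr1057 (chr2:86372561-86378393) 1 of 54 and 11 of 70. In both, IV replicate 1 was the highest IV library, at 22.9 and 31.6%. The differences were -10.4 points (adjusted p = 0.0228 by logistic regression and 0.862 by limma) and -16.2 points (adjusted p = 0.0269 by logistic regression and 0.862 by limma).

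The genes through which olfactory receptors signal, are moved to the membrane and are chosen lie elsewhere in the genome and had no common level or direction. The list had 23 genes, of which 22 or 23 were tested. In IFC against SOA 6 of 22 were called higher in IFC, against the 18.1% of all genes, and 4 lower, against 8.01%. The higher ones were Slc24a4, an ion exchanger (11.3 against 9.47%), Ric8b, a G protein chaperone (91.9 against 90.5%), Ldb1 (62.7 against 55.2%), Ebf1 (6.94 against 4.36%), Kdm1a, a histone demethylase (77.5 against 65.9%), and Lbr, the lamin B receptor (75.9 against 71.4%). The lower ones were Adcy3, the adenylyl cyclase of olfactory cilia (38.3 against 42.1%), the channel subunits Cnga2 (73.0 against 87.5%) and Cngb1 (52.1 against 66.1%), and Reep1 (41.5 against 55.7%).

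In IFC against SO 4 of 23 were called higher, against 10.6% of all genes, and 4 lower, against 5.88%. Slc24a4 (11.3 against 8.83%), Ebf1 (6.94 against 5.85%), Kdm1a (77.5 against 64.5%) and Lbr (75.9 against 70.0%) were higher in IFC, and Gnb1, a G protein beta subunit (71.3 against 76.6%), Cngb1 (52.1 against 60.3%), Reep1 (41.5 against 47.6%) and Lhx2 (24.4 against 29.1%) were lower. In SO against SOA, with 13.7% of all genes called higher and 8.5% lower, Gnb1 (76.6 against 75.7%) and Ebf1 (5.85 against 4.36%) were called higher in SO, and Adcy3 (36.2 against 42.1%), Cngb1 (60.3 against 66.1%) and Reep1 (47.6 against 55.7%) lower. Ric8b was called as well, but its direction differed between the pooled calls, on which the test rests (91.1% in SO against 88.4% in SOA), and the means of the libraries (90.1 against 90.5%), and for Gnb1 the pooled calls were further apart (77.9 against 73.7%). In SOA against IV, with 8.97% of all genes called higher and 12.8% lower, Gnb1 (75.7 against 70.4%) and Lbr (71.4 against 62.7%) were called higher in SOA, and Slc24a4 (9.47 against 12.5%), Rtp2, a receptor transporter (0.994 against 5.02%), and Ebf1 (4.36 against 7.72%) lower. IV replicate 1 was the highest IV library in these last 3 genes, with 19.2% in Slc24a4 against 10.1 and 8.35% in the other IV libraries, 10.4% in Rtp2 against 1.41 and 3.25%, and 12.6% in Ebf1 against 6.38 and 4.20%. Without it, an alternative chosen after seeing the data, Lbr (71.4 against 59.0%) was called higher in SOA and Ebf1 (4.36 against 5.29%) lower. That was 1 of 22 genes in each direction, against 7.42% of all genes called higher and 3.46% lower in the same set. Gnb1, Rtp2 and Slc24a4 were not called, and Slc24a4 changed direction (9.47 against 9.22%). limma called none of the 23 genes in any comparison, with 2, 2, 0 and 4 genes at an unadjusted p under 0.05 in IFC against SO, SO against SOA, SOA against IV and IFC against SOA.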

How the data were processed

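Methylation was measured in 16 libraries of MII oocyte pools. Per the labels and the study's methods, the authors trimmed reads with Trim Galore 0.4.4 and cutadapt 1.9.1, aligned them with Bismark 0.19.0 to GRCm38 and removed duplicates. The deposited files give, per cytosine, counts of calls read as methylated or as unmethylated, and the percent methylated. Reads of the F1 females were aligned to C57BL/6J alone, so a CBA/Ca C-to-T variant would be read as unmethylated, and values of single receptor genes are uncertain where a near-identical copy exists, which was not measured here.

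Counts were pooled per 50-kb bin, GENCODE gene body, interval, 1-Mb flank and other Olfr cluster (at least 10 genes, gaps up to 500 kb). Bins and genes with at least 5 covered positions in every compared library were tested by logistic regression (likelihood ratio, scipy 1.17.1) with Benjamini-Hochberg adjustment over all features, called under 0.05, as the study tested tiles of a fixed number of CpGs but without its minimum of 20 points, which was an alternative here, and by limma 3.58.1 (R 4.3.3) on the library percentages. Single regions were compared by exact permutation tests over libraries. Scripts were tested on simulated data. Named members were the 6 highest and 4 lowest genes measured in all 16 libraries, the first and last gene, and the 2 called genes with the largest difference per comparison and direction; bins, flank genes and the other genes of the interval followed similar rules. The members, gene lists and rules were chosen with earlier results of these data known. The study calls the libraries of a group biological replicates. Each is a pool of oocytes, and whether pools of a group shared females is not given in the sources used here. No pair of libraries shared more than 20.2% of its positions with equal counts inside the interval. Intervals and floors cover counting error only. Alternatives changed the position and call minimums, depth, test, gene set and libraries. The direction of a call was that of the difference between group means of library percentages, which was opposite to that of the pooled calls for at most 0.483% of called bins and 1.47% of called genes in any comparison.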

Additional observations from a re-analysis of the deposited data

How the results depend on the processing

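Interval differences (percentage points) kept their direction in all alternatives except those named here. With only positions of at least 3 calls, IFC minus SO was -3.12, SO minus SOA 3.76 (exact permutation p = 0.317), SOA minus IV -1.53 and IFC minus SOA 0.640 (exact permutation p = 0.886), and relative to the other Olfr clusters -1.59, 1.43, -0.287 and -0.161. After subtracting the genome-wide percentage IFC minus SO was 0.110. With only the 9 libraries under 10000000 calls they were -0.859 for IFC minus SO and 6.08 for SO minus SOA (exact permutation p = 0.1, the smallest possible), and -0.457 and 3.43 relative to the clusters. With a replicate block, SO minus SOA was 4.74 and IFC minus SOA 5.44 (both with an exact permutation p = 0.125, the smallest that 4 pairs allow), and 2.40 and 2.77 relative to the clusters. Same-numbered libraries correlated at -0.0256 to 0.104 in their deviations, and other-numbered ones at -0.0686 to 0.0568. The highest value was a same-numbered pair in IFC against SO, SO against SOA and IFC against SOA, and an other-numbered pair in SOA against IV. The main tests did not take the numbers as pairs, and whether they mark shared batches was not tested. Leaving out 1 library gave 0.0871 (without SO replicate 3) to 1.57 (without SO replicate 1) for IFC minus SO, 3.73 to 5.35 for SO minus SOA, and relative to the clusters -0.227 (without SO replicate 3) to 0.608 for IFC minus SO and 2.16 to 2.99 for SO minus SOA. For SO minus SOA of the interval, the exact permutation p was 0.0286 without SO replicate 3. It was 0.0536 to 0.0857 without any other library of these groups. The interval minus the flanks was -1.18 with the left flank only and 10.9 outside gene bodies, or 7.90 there from the first to the last Olfr gene. The cause of these changes was not tested.

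Counts of called bins, in the order IFC against SO, SO against SOA, SOA against IV and IFC against SOA, were 0, 1, 0 and 5 by the quasi-binomial test, 0, 3, 0 and 9 by limma, 0, 0, 0 and 1 with a difference of at least 20 points, and 4, 8, 1 and 18 with libraries thinned to the shallowest. With only those 9 libraries they were 3, 4 and 20, with none possible for SOA against IV, and with a replicate block 4 for IFC against SO and 7 for SOA against IV. Leaving out 1 library gave 1 to 10, 13 to 33, 1 to 23 and 20 to 39. Counts of called gene bodies were 0, 0, 0 and 0 by the quasi-binomial test, 0, 0, 0 and 1 by limma and 1, 1 and 0 in the first 3 comparisons when thinned, 0 for SOA against IV with 20 points and 3 for IFC against SOA with only those 9 libraries. Leaving out 1 library gave 0 to 5, 2 to 6, 0 to 5 and 3 to 8. For the 20-point minimum, thinning, the block and fewer libraries, the share of all bins or genes is not given beside these counts. Their changes therefore cannot be read as particular to the cluster. At this depth most receptor genes could not be tested singly.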
